A study of Mus musculus with 6 samples.

Results

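The 48 genes described here encode the collagen chains, laminins, basement membrane linkers, adhesive glycoproteins, elastic fibre proteins and collagen-modifying enzymes that build the extracellular matrix. They were chosen by gene symbol, with earlier results of these data known, and all 48 were found among the 35709 genes of the deposited table. They were followed in AML12 cells, an established line of mouse hepatocytes derived from an animal carrying a TGF-alpha transgene. The cells received either an siRNA against Uhrf2 (siUhrf2) or a scrambled siRNA (siCtrl), both delivered with Lipofectamine RNAiMAX, and total RNA was sequenced after 72 h in 3 libraries per group. Uhrf2 encodes a RING-type ubiquitin ligase with domains that bind modified DNA and histones. All libraries come from this 1 line, labelled wild type where the scrambled siRNA was used, and the labels do not say whether the 3 replicates of a group were separate cultures, so the p-values below reflect the scatter among these samples alone, and that scatter may be technical.

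Collagens are secreted as rope-like trimers after their prolines and lysines have been hydroxylated in the endoplasmic reticulum, and are cross-linked outside the cell. Basement membranes are thin sheets in which a collagen IV network and a laminin network are joined by nidogens and by the heparan sulphate proteoglycans perlecan and agrin. In liver, stellate cells are the best known source of fibrillar collagens, while bile duct epithelium rests on a continuous basement membrane and hepatocytes face a looser matrix.

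Values are the authors' normalized counts, a library-scaled read count per gene, and, for levels compared between genes, their FPKM (fragments per kilobase of transcript, scaled to library size). The libraries held an estimated 44.6 M to 53.1 M reads assigned to genes. Uhrf2 itself had 2942, 2805 and 2777 normalized counts in siUhrf2 libraries, against 8899, 9058 and 9018 in siCtrl libraries, or 31.6% of the siCtrl mean (log2 fold change -1.66, SE 0.034, limma adjusted p = 7.58e-11). Of 12 hepatocyte markers, 8 reached a mean of 1 FPKM, among them Krt18 (1003 FPKM), Trf (911 FPKM) and Hnf4a (83.4 FPKM), while Alb (0.611 FPKM), Apoa1, Cps1 and Ass1 did not. None of 12 fibroblast and stellate cell markers reached 1 FPKM, and Hand2 was at 0 in every library.

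Of the 48 matrix genes, 35 averaged 1 FPKM or more and were tested, together with 11343 genes in all, by limma on log2(normalized count + 1) with Benjamini-Hochberg adjustment. The other 13 were under that level: Col1a1, Col1a2, Col3a1, Col5a1, Col5a2, Col8a1, Lama3, Nid2, Bgn, Fbn1, Eln, Fbln1 and Lox. The tested matrix transcripts fell more often than they rose after Uhrf2 knockdown. Because the list was drawn up with earlier results of these data known, the shares below describe these genes and are no independent test. Of the 35 tested, 17 (48.6%) fell at an adjusted p under 0.05, against 31.1% of all genes tested, and 8 (22.9%) rose, against 29.9% of all genes tested. In either direction 25 (71.4%) passed, against 61.0% of all genes, and 10 did not. The median log2 fold change of the 35 was -0.27, against -0.01 over all genes tested, and the median absolute change was 0.44, against 0.19. The 3 libraries of siUhrf2 did not overlap those of siCtrl for 24 of the 35 (68.6%), a share close to the 66.7% of all genes tested. When limma's treat test asked for more than a 1.5-fold change, 5 of the 35 passed (14.3%), against 3.02% of all genes: Col4a2, Nid1 and Postn were lower and Lamb3 and Vcan were higher. Postn averaged 0.716 FPKM in siUhrf2 libraries and 12.8 FPKM in siCtrl libraries, and Nid1 0.795 and 1.82 FPKM. Both therefore reached the mean of 1 FPKM, and so the test, only through their siCtrl libraries. In bulk RNA, fewer cells of a type and less RNA per cell cannot be told apart.

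**Figure D1:**
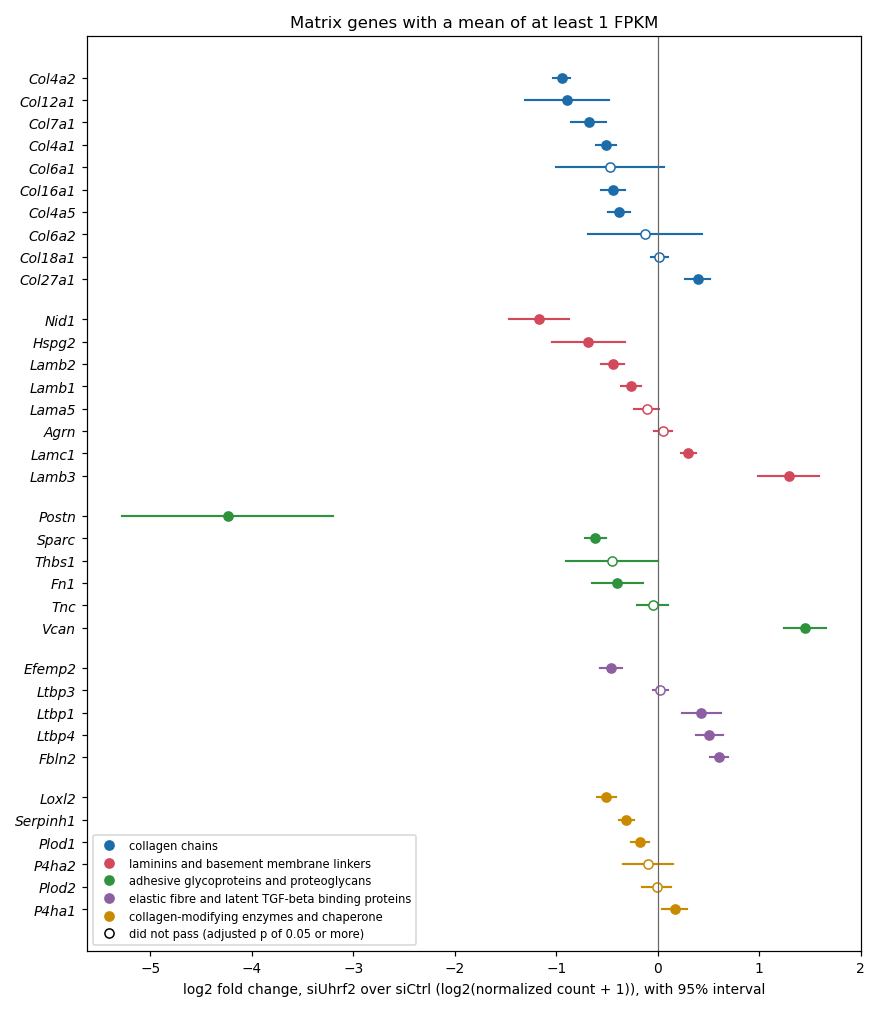
Log2 fold change of siUhrf2 over siCtrl with its 95% interval (x axis) for the 35 matrix genes averaging 1 FPKM or more (y axis), in 5 role groups by colour. Open circles did not pass at an adjusted p of 0.05. Postn lies farthest to the left at -4.24, and Vcan and Lamb3 farthest to the right at 1.45 and 1.29.

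The 5 genes that passed the 1.5-fold test are introduced by the DNA at their starts, since these are the members whose change passed the strictest test used here. The sequences are RefSeq promoter windows of build GRCm38.p6, read 5′ to 3′ on the strand of the gene and shown up to the base before the annotated exon. Capitals mark matches, on either strand, to the motifs CCAAT (the NF-Y box), GGGCGG (the Sp1 GC box), CATTCC (the TEAD element), CAGACA (a SMAD-binding element) and TATAAA (the TATA box). The AP-1 element TGANTCA was also searched, and no motif contains another. Postn, at chr3:54360857-54361106 (plus strand), has a match to the TATA box and none to the others. Nid1, at chr13:13437352-13437550 (plus strand), has matches to the TEAD element, the NF-Y box and the GC box. Vcan, at chr13:89742513-89742762 (minus strand), has a match to the NF-Y box, and to the GC box on each strand. Lamb3, at chr1:193301744-193301992 (plus strand), has a match to the SMAD-binding element, and this RefSeq start lies 94295 bases inside the longer span that GENCODE gives the gene. Postn and Lamb3 each have another RefSeq window, not shown. That of Postn, at chr3:54359017-54359266, has no match to any motif searched. That of Lamb3, at chr1:193301993-193302242 and partly annotated exon, has a match to the TEAD element and none to the SMAD-binding element.
Postn: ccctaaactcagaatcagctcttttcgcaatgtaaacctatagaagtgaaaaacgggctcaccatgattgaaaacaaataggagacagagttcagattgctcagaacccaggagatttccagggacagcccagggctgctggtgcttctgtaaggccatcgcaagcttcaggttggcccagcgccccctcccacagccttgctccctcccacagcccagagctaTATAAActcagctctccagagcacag
Nid1: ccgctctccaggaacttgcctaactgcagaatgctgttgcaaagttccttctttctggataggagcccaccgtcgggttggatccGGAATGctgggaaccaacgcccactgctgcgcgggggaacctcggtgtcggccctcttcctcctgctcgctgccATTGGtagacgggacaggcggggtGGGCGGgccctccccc
Vcan: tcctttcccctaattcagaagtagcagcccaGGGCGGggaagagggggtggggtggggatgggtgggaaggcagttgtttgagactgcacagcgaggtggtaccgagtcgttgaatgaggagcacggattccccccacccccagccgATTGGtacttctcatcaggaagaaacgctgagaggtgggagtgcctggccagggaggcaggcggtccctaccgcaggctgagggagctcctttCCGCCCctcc
Lamb3: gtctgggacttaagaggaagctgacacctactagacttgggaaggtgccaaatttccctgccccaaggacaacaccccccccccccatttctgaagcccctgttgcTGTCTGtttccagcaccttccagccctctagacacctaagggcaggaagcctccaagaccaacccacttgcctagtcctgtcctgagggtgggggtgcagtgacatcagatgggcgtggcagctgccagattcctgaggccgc

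For Col4a2 the window upstream of its start is annotated as exon of Col4a1. Both collagen IV genes start head to head, Col4a1 at 11312826 on the minus strand and Col4a2 at 11312805 on the plus strand of chromosome 8, so their annotated first exons overlap by 22 bases at chr8:11312805-11312826. The overlap holds a match to the GC box, shown in capitals on the strand of Col4a2.
Col4a1 and Col4a2 overlap: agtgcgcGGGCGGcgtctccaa

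Windows of 300 bases, from 250 before to 50 after a start, were at hand for 36 of the 48 matrix genes (48 windows), and 32851 windows served as the background. GGGCGG was found in 35 of the 48 windows, against 35.7% of all windows, and CAGACA in 16, against 21.0%. CCAAT was found in 13, against 37.4%, TATAAA in 6, against 13.6%, CATTCC in 5, against 14.7%, and TGANTCA in 2, against 7.81%. Some windows of a gene overlap each other, and a match describes the letters of the window.

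Among the 16 collagen chains 10 were tested: 6 fell, 1 rose and 3 missed the threshold, with a median log2 fold change of -0.46. For this and the other role groups, the shares over all genes tested were 31.1% lower and 29.9% higher. The 3 members that encode chains of collagen IV, the scaffold of every basement membrane, fell. Col4a2 had 8732, 9145 and 9418 normalized counts in siUhrf2 libraries, against 17023, 18069 and 17529 in siCtrl libraries. Its lowest siCtrl library lay far above its highest siUhrf2 library, and the siUhrf2 mean was 51.9% of the siCtrl mean (log2 fold change -0.95, SE 0.037, limma adjusted p = 5.11e-09). Its partner Col4a1, which supplies the other chain of the same trimer, had 17615, 18148 and 18087 normalized counts in siUhrf2 libraries and 23669, 26637 and 26392 in siCtrl libraries. It fell less, to 70.2% of the siCtrl mean, again without overlap (log2 fold change -0.51, SE 0.044, limma adjusted p = 2.01e-06). Col4a5, the chain mutated in X-linked Alport syndrome, had 3238, 2840.3 and 2886 normalized counts in siUhrf2 libraries and 3874, 3745 and 4039 in siCtrl libraries. It fell to 76.9% of the siCtrl mean (log2 fold change -0.38, SE 0.051, limma adjusted p = 6.07e-05).

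Col7a1, whose product forms the anchoring fibrils under stratified epithelia, had 932, 734 and 805 normalized counts in siUhrf2 libraries and 1369, 1265 and 1315 in siCtrl libraries. The groups did not overlap, and the siUhrf2 mean was 62.6% of the siCtrl mean (log2 fold change -0.68, SE 0.078, limma adjusted p = 2.28e-05). Col12a1 and Col16a1 encode fibril-associated collagens, which sit on the surface of larger fibrils. Col12a1 had 1422, 1109 and 1083 normalized counts in siUhrf2 libraries and 2579, 1869 and 2286 in siCtrl libraries (log2 fold change -0.90, SE 0.16, limma adjusted p = 0.00572). Col16a1 was tighter, with 683, 692 and 729.8 normalized counts in siUhrf2 libraries and 961, 975 and 923 in siCtrl libraries (log2 fold change -0.44, SE 0.056, limma adjusted p = 3.53e-05). Neither gene had a siUhrf2 library that reached the siCtrl range.

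Col27a1, a fibrillar collagen best known from cartilage, was the chain that rose. It had 2769, 2412 and 2498 normalized counts in siUhrf2 libraries, against 1966, 1835 and 2042 in siCtrl libraries, a 1.31-fold change (log2 fold change 0.39, SE 0.057, limma adjusted p = 0.000105). Its groups did not overlap.

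Col18a1, the basement membrane collagen that is cleaved to endostatin, was at 41414, 40812 and 42224 normalized counts in siUhrf2 libraries and 39306, 42528 and 41302 in siCtrl libraries. It did not pass, and its interval was narrow (log2 fold change 0.02, 95% interval -0.07 to 0.10, limma adjusted p = 0.733). The beaded-filament chains of collagen VI did not pass either, with wider intervals. Col6a1 had 2273, 1467 and 1607 normalized counts in siUhrf2 libraries and 2645, 2133 and 2539.9 in siCtrl libraries (log2 fold change -0.47, 95% interval -1.01 to 0.06, limma adjusted p = 0.103). Here siUhrf2 replicate 1 lay inside the siCtrl range, and without it the log2 fold change was -0.66 and the limma adjusted p was 0.000969. Each library was left out in turn, and this fit is given here because that library had a high value. Leaving it out can only enlarge the fall, so the smaller p is no evidence of one. Col6a2 had 512, 307 and 362 normalized counts in siUhrf2 libraries and 462, 334 and 482 in siCtrl libraries, with siUhrf2 replicate 1 the highest of all 6 (log2 fold change -0.13, 95% interval -0.69 to 0.43, limma adjusted p = 0.657).

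The classical interstitial collagens were scarce. Col1a1, a chain of collagen I, had 114, 95.6 and 67.4 normalized counts in siUhrf2 libraries and 81.6, 82.1 and 55.7 in siCtrl libraries, just under the 1 FPKM limit with a mean of 0.947 FPKM. Its partner chain Col1a2 had at most 1.46 normalized counts in any library, and Col3a1 was listed at 0 in all 6. Col5a1, a chain of the collagen V that starts fibrils, had 18.6, 19.3 and 30.4 normalized counts in siUhrf2 libraries and 12.6, 12.9 and 10.2 in siCtrl libraries, while its partner Col5a2 had at most 1.84. Col8a1, of the hexagonal-lattice collagen VIII, had at most 7.05 normalized counts. Stellate cell and fibroblast markers were likewise near 0: the FPKM of all 12 together summed to between 0.464 and 0.600 in siUhrf2 libraries and to between 0.710 and 1.03 in siCtrl libraries. These sums were lower in all 3 siUhrf2 libraries, and their part in the results for collagens was not tested. Leukocyte markers also summed to less, with 2.99 to 3.94 FPKM in siUhrf2 libraries and 7.59 to 9.30 FPKM in siCtrl libraries, of which Cd68 and Csf1r alone of 8 markers reached 1 FPKM and both fell, and Adgre1 and Tyrobp were at 0 in every library. Their part was not tested. Endothelial markers summed to 2.45 to 3.75 FPKM in siUhrf2 libraries and 3.22 to 3.77 FPKM in siCtrl libraries, mostly from Egfl7.

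**Figure D2:**
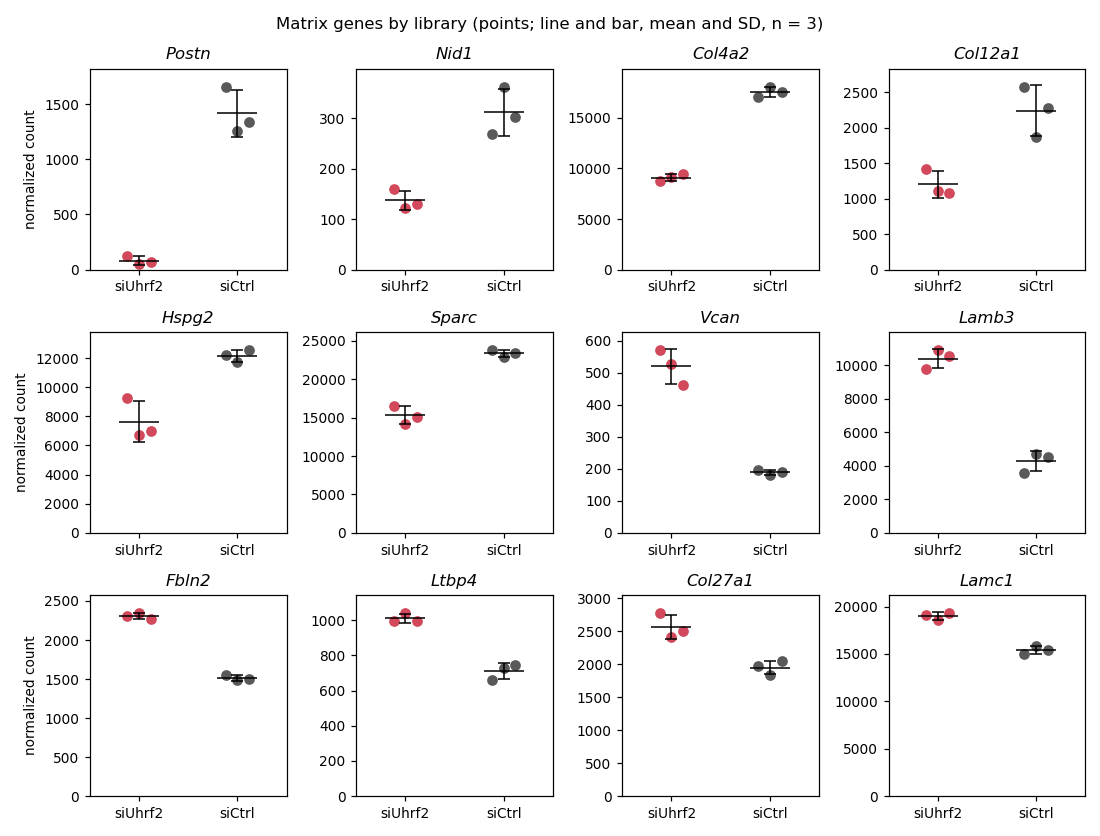
Normalized counts (y axis, from 0) of 12 matrix genes in each siUhrf2 library (left, red) and each siCtrl library (right, grey), with the mean and SD of 3 libraries as line and bar. In the 6 genes that were lower all siUhrf2 points lie under all siCtrl points, and in the 6 that were higher all lie above.

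Of the 10 laminins and basement membrane linkers, 8 could be tested: 4 fell, 2 rose and 2 missed the threshold, with a median log2 fold change of -0.19. Laminins are cross-shaped trimers of an alpha, a beta and a gamma chain. The beta chains moved in opposite directions. Lamb3, the beta chain of the laminin that anchors epithelia at hemidesmosomes (ENSMUSG00000026639), had 9749, 10899.5 and 10533 normalized counts in siUhrf2 libraries, against 3581, 4706 and 4553 in siCtrl libraries. All siUhrf2 libraries were above all siCtrl libraries, and the change was 2.44-fold (log2 fold change 1.29, SE 0.12, 95% interval 0.99 to 1.59, limma adjusted p = 0.000327). Lamb2, the beta chain of mature vascular, neuromuscular and kidney basement membranes, had 8373, 7197 and 7323 normalized counts in siUhrf2 libraries and 10388, 10360.5 and 10353 in siCtrl libraries. It fell to 73.6% of the siCtrl mean (log2 fold change -0.45, SE 0.051, limma adjusted p = 3.06e-05). Lamb1, the beta chain of most embryonic basement membranes, had 1204, 1145 and 1159.6 normalized counts in siUhrf2 libraries and 1379, 1421 and 1418 in siCtrl libraries (log2 fold change -0.27, SE 0.046, limma adjusted p = 0.000365). Neither Lamb1 nor Lamb2 overlapped between groups.

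Lamc1, the gamma chain shared by most laminins, had 19153, 18540.0 and 19285 normalized counts in siUhrf2 libraries and 15047, 15889 and 15379 in siCtrl libraries. It rose 1.23-fold without overlap (log2 fold change 0.30, SE 0.034, limma adjusted p = 1.44e-05). Of the alpha chains, Lama3 was close to 0, with 6.55, 9.15 and 4.03 normalized counts in siUhrf2 libraries and 7.32, 4.61 and 1.86 in siCtrl libraries. The alpha chain present at a high level was Lama5, of the broadly expressed epithelial laminins, with 25981, 22026 and 22609 normalized counts in siUhrf2 libraries and 25066, 24968 and 25919 in siCtrl libraries. It did not pass (log2 fold change -0.11, 95% interval -0.23 to 0.02, limma adjusted p = 0.117), and siUhrf2 replicate 1 was the highest of all 6 libraries. Without that library the log2 fold change of Lama5 was -0.18 and the limma adjusted p was 0.000216. Dropping the highest siUhrf2 library makes a fall larger by construction, so Lama5 is still counted as not passing.

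**Figure D3:**
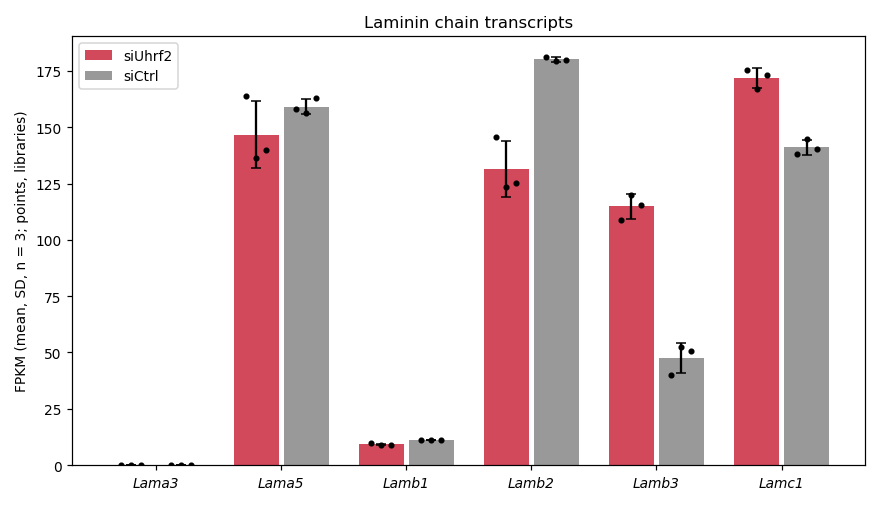
FPKM (y axis, from 0) of 6 laminin chains in siUhrf2 (red) and siCtrl (grey) libraries, with bars for the mean, whiskers for the SD (n = 3) and points for libraries. Lamb3 averaged 115 FPKM in siUhrf2 libraries and 47.7 FPKM in siCtrl libraries, while Lama3 was near 0 in both groups.

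The proteins that tie the laminin and collagen IV networks together also differed among themselves. Nid1, the nidogen that bridges them (ENSMUSG00000005397), had 159, 123 and 129.9 normalized counts in siUhrf2 libraries and 269.9, 362 and 303 in siCtrl libraries. It fell to 44.1% of the siCtrl mean without overlap (log2 fold change -1.17, SE 0.14, limma adjusted p = 1.76e-05), at a low level of 0.795 FPKM in siUhrf2 libraries and 1.82 FPKM in siCtrl libraries. Nid2, its homologue, was listed at 0 in the siUhrf2 libraries and had at most 1.05 normalized counts in siCtrl libraries. Hspg2, which encodes perlecan, had 9269, 6692 and 6972 normalized counts in siUhrf2 libraries and 12192, 11735 and 12544 in siCtrl libraries. It fell to 62.9% of the siCtrl mean, with siUhrf2 replicate 1 nearest to the siCtrl range (log2 fold change -0.68, SE 0.14, limma adjusted p = 0.0105). Agrn, which encodes agrin, the other large heparan sulphate proteoglycan, did not pass, with 38857, 35781 and 36707 normalized counts in siUhrf2 libraries and 34392, 36926 and 36198 in siCtrl libraries (log2 fold change 0.05, 95% interval -0.04 to 0.14, limma adjusted p = 0.308).

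Of the 7 adhesive glycoproteins and proteoglycans, 6 could be tested: 3 fell, 1 rose and 2 missed the threshold, with a median log2 fold change of -0.43. Postn, the matricellular protein periostin that binds collagens and integrins (ENSMUSG00000027750), had the lowest siUhrf2 level relative to siCtrl of all 35. It had 124, 46.8 and 68.4 normalized counts in siUhrf2 libraries, against 1657, 1261 and 1334 in siCtrl libraries. The siUhrf2 mean was 5.64% of the siCtrl mean (log2 fold change -4.24, SE 0.39, 95% interval -5.28 to -3.20, limma adjusted p = 0.000672). Leaving out each library in turn gave log2 fold changes of -4.61 to -3.92. Sparc, a collagen-binding glycoprotein also called osteonectin, was the most abundant member per length, with 16524, 14219 and 15102 normalized counts in siUhrf2 libraries and 23779, 22866 and 23444 in siCtrl libraries. It fell to 65.4% of the siCtrl mean without overlap (log2 fold change -0.61, SE 0.049, limma adjusted p = 1.41e-06).

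Fn1, fibronectin, on which many other matrix proteins assemble, had 45535, 35520.3 and 35836 normalized counts in siUhrf2 libraries and 49197, 50219 and 53619.5 in siCtrl libraries. It fell to 76.4% of the siCtrl mean without overlap (log2 fold change -0.40, SE 0.10, limma adjusted p = 0.0161), and it missed the threshold when genes of low level were kept in the fit (limma adjusted p = 0.0840). Thbs1, thrombospondin, which can activate latent TGF-beta, had 5470.0, 4002 and 4167 normalized counts in siUhrf2 libraries and 6990.4, 5326 and 6281 in siCtrl libraries. The groups overlapped in siUhrf2 replicate 1, and the gene did not pass (log2 fold change -0.45, 95% interval -0.91 to 0.00, limma adjusted p = 0.0787). Without that library the log2 fold change was -0.59 and the limma adjusted p was 0.0198. As this fit, 1 of those with each library left out in turn, is given for the high value of that library, its p-value does not make Thbs1 a call. Tnc, the wound-associated glycoprotein tenascin C, had 3077, 2777 and 2514 normalized counts in siUhrf2 libraries and 2809.5, 2798 and 3044 in siCtrl libraries and did not pass (log2 fold change -0.05, 95% interval -0.21 to 0.10, limma adjusted p = 0.539).

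Vcan, the large hyaluronan-binding chondroitin sulphate proteoglycan versican (ENSMUSG00000021614), rose most among the 35. It had 571, 527 and 463 normalized counts in siUhrf2 libraries, against 198, 182 and 189 in siCtrl libraries. Every siUhrf2 library was above every siCtrl library, a 2.73-fold change at a low level of 2.40 to 3.02 FPKM in siUhrf2 libraries and 0.955 to 1.05 FPKM in siCtrl libraries (log2 fold change 1.45, SE 0.095, limma adjusted p = 2.39e-07). Bgn, the small collagen-binding proteoglycan biglycan, was under the limit with 6.53, 3.12 and 8.88 normalized counts in siUhrf2 libraries and 6.60, 11.5 and 16.1 in siCtrl libraries.

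Of the 8 elastic fibre and latent TGF-beta binding proteins, 5 were tested, and this was the group in which more members rose (3) than fell (1), with a median log2 fold change of 0.43. With 29.9% of all genes tested rising and 31.1% falling, 5 genes are too few to give the group a direction. Fbln2, a fibulin that binds basement membrane and elastic fibre proteins, had 2308, 2341 and 2269.9 normalized counts in siUhrf2 libraries and 1556, 1486 and 1504 in siCtrl libraries. It rose 1.52-fold with little spread in either group (log2 fold change 0.61, SE 0.041, limma adjusted p = 2.96e-07). Ltbp4 and Ltbp1 encode proteins that hold latent TGF-beta in the matrix. Ltbp4 had 998, 1039 and 997 normalized counts in siUhrf2 libraries and 662, 729 and 747 in siCtrl libraries, a 1.42-fold rise (log2 fold change 0.51, SE 0.060, limma adjusted p = 2.29e-05). Ltbp1 had 5203, 4463 and 4281 normalized counts in siUhrf2 libraries and 3679, 3186 and 3465 in siCtrl libraries, a 1.35-fold rise (log2 fold change 0.43, SE 0.082, limma adjusted p = 0.00282). In all 3 genes the groups did not overlap.

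Ltbp3, the most abundant member of this family in these cells, did not pass, with 22422, 21099.6 and 21557 normalized counts in siUhrf2 libraries and 21359, 21282 and 21225 in siCtrl libraries (log2 fold change 0.03, 95% interval -0.05 to 0.10, limma adjusted p = 0.505). Efemp2, also known as fibulin-4 and needed for elastic fibre assembly, had 1869.7, 1871 and 2076 normalized counts in siUhrf2 libraries and 2620.2, 2767 and 2628 in siCtrl libraries. It fell to 72.6% of the siCtrl mean without overlap (log2 fold change -0.46, SE 0.049, limma adjusted p = 8.55e-06). Exons of Efemp2 overlap Mus81 on the opposite strand by 173 bases, and the sources used here do not say whether the authors counted by strand. Fn1, Nid1, Tnc, Thbs1, Plod2 and Loxl2 also share exonic bases with genes on the opposite strand, each of these under 1 FPKM. The structural proteins of the fibre itself were near 0. Eln, elastin, had at most 4.43 normalized counts and Fbln1 was listed at 0 throughout. Fbn1, the microfibril protein fibrillin, had 7.64, 3.05 and 4.03 normalized counts in siUhrf2 libraries and 15.7, 20.3 and 14.8 in siCtrl libraries, without overlap and under the 1 FPKM limit.

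Of the 7 collagen-modifying enzymes and chaperones, 6 could be tested, and 3 of them fell, 1 rose and 2 missed the threshold, with a median log2 fold change of -0.14. Loxl2, a lysyl oxidase that cross-links collagen IV, had 8436, 8017 and 7954 normalized counts in siUhrf2 libraries and 10852, 11788 and 12070.0 in siCtrl libraries. It fell to 70.3% of the siCtrl mean without overlap (log2 fold change -0.51, SE 0.042, limma adjusted p = 1.47e-06). Lox, the founding lysyl oxidase, was listed at 0 in all 6 libraries. Serpinh1, the collagen-specific chaperone of the endoplasmic reticulum, had 14295, 14560.1 and 14541 normalized counts in siUhrf2 libraries and 17522, 18466 and 17791 in siCtrl libraries. It fell to 80.7% of the siCtrl mean (log2 fold change -0.31, SE 0.032, limma adjusted p = 7.92e-06).

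Plod1, a lysyl hydroxylase of the collagen helix, had 2155, 2062 and 2064 normalized counts in siUhrf2 libraries and 2310.2, 2362 and 2428 in siCtrl libraries and fell to 88.5% of the siCtrl mean (log2 fold change -0.18, SE 0.040, limma adjusted p = 0.00254). Plod2, which hydroxylates lysines at the ends of the chain, had 2136, 2277 and 1982 normalized counts in siUhrf2 libraries and 2009, 2098 and 2340.4 in siCtrl libraries and did not pass (log2 fold change -0.01, 95% interval -0.15 to 0.13, limma adjusted p = 0.893). The prolyl hydroxylase subunits gave small values. P4ha1 had 2165, 2299 and 2319 normalized counts in siUhrf2 libraries and 1859.8, 2007 and 2177 in siCtrl libraries. It rose 1.12-fold although the groups overlapped (log2 fold change 0.17, SE 0.056, limma adjusted p = 0.0214). The limma adjusted p of P4ha1 was 0.0696 without siUhrf2 replicate 2, 0.0813 without siUhrf2 replicate 3, 0.0832 without siCtrl replicate 1 and 0.0538 without siCtrl replicate 2. P4ha2 had 2188, 2332 and 2146 normalized counts in siUhrf2 libraries and 2004, 2637 and 2526 in siCtrl libraries and did not pass (log2 fold change -0.10, 95% interval -0.34 to 0.15, limma adjusted p = 0.451). Here siCtrl replicate 1 was the lowest of all 6 libraries, and without it the log2 fold change was -0.22 and the limma adjusted p was 0.00308. Removing the lowest siCtrl library also enlarges a fall by construction, so P4ha2 stays among the genes that did not pass.

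Several of these genes encode partners in a trimer or alternatives at the same step, so the ratio of their FPKM was compared within each library for 9 pairs, each tested by an exact two-sided permutation test. With 3 libraries per group the smallest p this test can give is 0.10, or 0.129 after Benjamini-Hochberg adjustment over the 9 pairs, so no pair could pass. The ratios did not overlap between groups for 7 of the 9 pairs. Single genes were often without overlap too, at 66.7% of all genes tested. How often the ratios of other gene pairs do so was not computed, so the 7 are a description only. Lamb3 stood at 11.3, 13.3 and 12.7 times the FPKM of Lamb1 in siUhrf2 libraries, against 3.63, 4.63 and 4.49 times in siCtrl libraries (difference 1.55 on the log2 scale, exact p = 0.10). Lamb1 over Lamc1 was 0.0549, 0.0539 and 0.0525 in siUhrf2 libraries and 0.0800, 0.0781 and 0.0805 in siCtrl libraries (difference -0.57 on the log2 scale, exact p = 0.10). In both pairs every siUhrf2 library lay outside the siCtrl range.

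Col4a1 over Col4a2 was 2.56, 2.51 and 2.43 in siUhrf2 libraries and 1.76, 1.87 and 1.91 in siCtrl libraries (difference 0.44 on the log2 scale, exact p = 0.10). In the protein, trimers hold these chains in a fixed proportion. Ltbp3 over Ltbp1 was 7.10, 7.79 and 8.30 in siUhrf2 libraries and 9.57, 11.0 and 10.1 in siCtrl libraries (difference -0.40 on the log2 scale, exact p = 0.10). Col6a1 over Col6a2 averaged 8.16 ± 0.354 in siUhrf2 libraries and 10.4 ± 1.01 in siCtrl libraries (SD, n = 3 each, exact permutation p = 0.10). Here neither gene had passed alone, while their ratio did not overlap between groups. P4ha1 over P4ha2 averaged 0.383 ± 0.0202 in siUhrf2 libraries and 0.320 ± 0.0316 in siCtrl libraries, and Lamb2 over Lamb1 averaged 14.2 ± 0.821 in siUhrf2 libraries and 16.1 ± 0.302 in siCtrl libraries (SD, n = 3 each, exact permutation p = 0.10 for both). The ratios of Col4a5 to Col4a1 (exact p = 0.40) and of Plod1 to Plod2 (exact p = 0.20) overlapped.

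**Figure D4:**
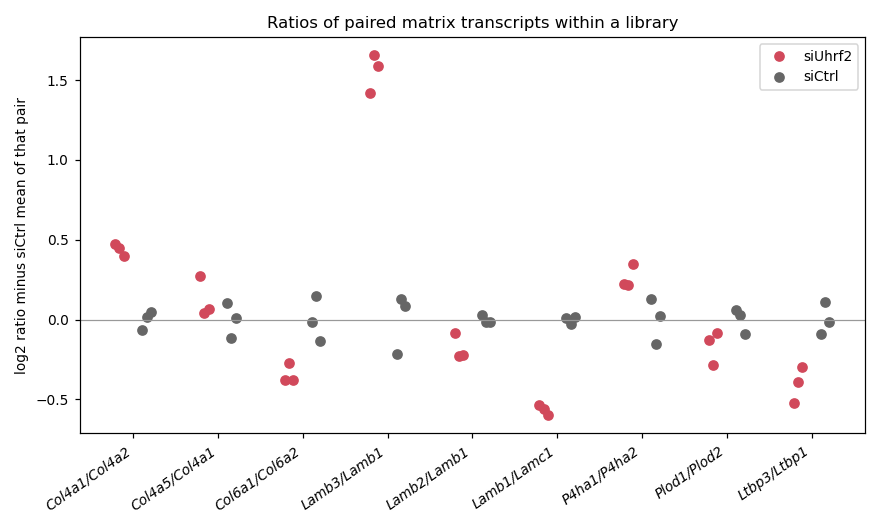
Log2 ratio of FPKM within each library for 9 pairs of matrix genes (x axis), as the difference from the siCtrl mean of that pair (y axis), for siUhrf2 (red) and siCtrl (grey) libraries. Lamb3 over Lamb1 stands highest, with a mean difference of 1.55, and Lamb1 over Lamc1 lowest, with -0.57.

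Summed over a role group, the FPKM of the 16 collagen chains was 540 to 558 in siUhrf2 libraries and 680 to 720.4 in siCtrl libraries, a ratio of 0.779 between the means. The 7 glycoproteins and proteoglycans summed to 477 ± 57.5 FPKM in siUhrf2 libraries and 692 ± 19.3 FPKM in siCtrl libraries (SD, n = 3 each). The 7 modifying enzymes and chaperones summed to 334 ± 4.33 FPKM in siUhrf2 libraries and 406 ± 14.9 FPKM in siCtrl libraries (SD, n = 3 each). These 3 groups did not overlap between conditions. How often sums over other gene sets do so was not computed, so this is a description only. Abundant genes weigh most in such sums. Mean FPKM in siUhrf2 and siCtrl libraries was 242 and 373 for Sparc, 194 and 256 for Fn1, 170 and 245 for Col4a1, and 68.1 and 133 for Col4a2. In each of these 3 groups 1 member was called higher. The laminins and linkers, with 736 ± 37.4 FPKM in siUhrf2 libraries and 711 ± 13.2 FPKM in siCtrl libraries, did overlap, with higher Lamb3 and Lamc1 beside lower Lamb2 and Hspg2. The elastic fibre and latent TGF-beta binding group, with 309.8 to 333 FPKM in siUhrf2 libraries and 309 to 313 FPKM in siCtrl libraries, overlapped as well. All 48 genes together summed to 2332 to 2550 FPKM in siUhrf2 libraries and 2778 to 2864 FPKM in siCtrl libraries.

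By mean FPKM over the 6 libraries the order of the members began with Sparc (308 FPKM), Col18a1, Fn1 (225 FPKM), Ltbp3 (220.4 FPKM), Serpinh1 (219 FPKM) and Col4a1 (208 FPKM). In siUhrf2 libraries Col18a1 at 250.2 ± 4.55 FPKM and Sparc at 242 ± 20.8 FPKM (SD, n = 3 each) differed by less than the SD of Sparc, whereas in siCtrl libraries Sparc at 373 ± 8.96 FPKM stood above Fn1 at 256 ± 11.3 FPKM and Col18a1 at 249.8 ± 8.82 FPKM. The order depends on the length behind FPKM. The deposited values imply a length per gene that is 21.0% (Lamb2) to 91.7% (Col6a2) of the longest transcript that GENCODE annotates, with a median of 49.1% over the tested members. With the longest transcript as the length, Lamb2 would have a mean of 32.7 in place of 156, and Sparc, Col18a1 and Serpinh1 would lead with 172, 150.5 and 145. Nid1 and Vcan would then lie under 1, at 0.754 and 0.582. Fold changes within a gene do not depend on this length.

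**Figure D5:**
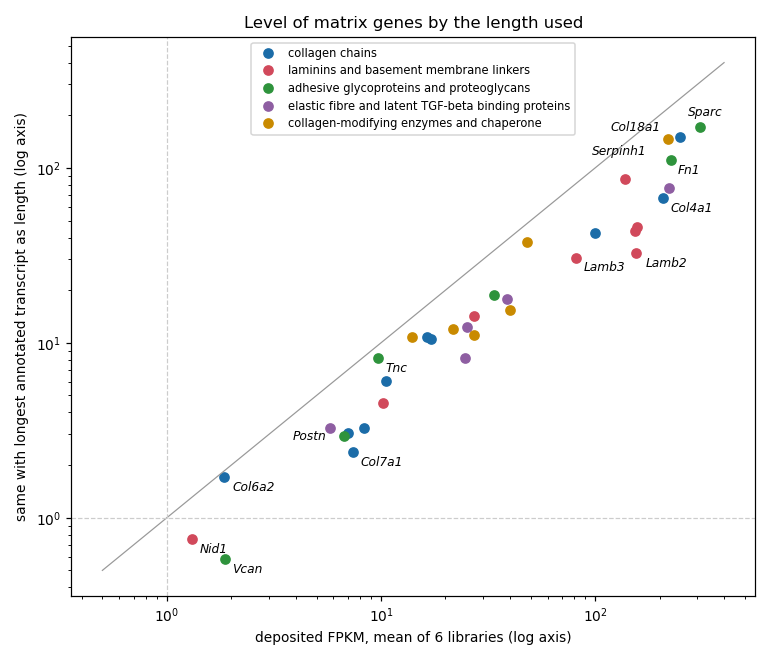
Mean level over 6 libraries of the tested matrix genes by the deposited FPKM (x axis, log) and by the same reads per kilobase of the longest annotated transcript (same library scaling, y axis, log), coloured by role group, with the line of equal values. All points lie under the line, and Nid1 (1.31 and 0.754) and Vcan (1.86 and 0.582) fall on different sides of 1 on the 2 scales.

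The wider matrix gene set, 117 further genes in 5 lists, was mostly under the limit: 38 were tested, of which 9 rose, 17 fell and 12 did not pass. Over all genes tested, 29.9% rose and 31.1% fell, and the same shares stand behind the small counts of each list below. Of 28 other collagen chains 3 were tested. Col15a1, a basement membrane relative of Col18a1, rose with 1542, 1855 and 1824 normalized counts in siUhrf2 libraries and 842, 1081 and 1066 in siCtrl libraries (log2 fold change 0.81, SE 0.11, limma adjusted p = 0.000577). Col11a2 fell (log2 fold change -0.28, limma adjusted p = 0.0388) and Col4a6, another collagen IV chain, did not pass (log2 fold change 0.14, limma adjusted p = 0.0580). Of 18 other basement membrane proteins 8 were tested, of which 2 rose and 3 fell. The fallers were Ntn1, a netrin (log2 fold change -0.76), Tinagl1, a tubulointerstitial nephritis antigen relative (-0.25), and Lama4, an alpha chain of vascular laminins (-0.60). Ntn1 averaged 0.904 FPKM in siUhrf2 libraries and 1.55 FPKM in siCtrl libraries, so it reached the test only through its siCtrl libraries.

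Of 28 other glycoproteins and proteoglycans 5 were tested, of which 1 rose and 3 fell. Ecm1, which binds perlecan and fibulins, fell to 36.5% of the siCtrl mean, with 382, 310.1 and 314 normalized counts in siUhrf2 libraries and 960.2, 899 and 898 in siCtrl libraries (limma adjusted p = 9.54e-08). Matn2, a matrilin, rose (log2 fold change 0.61, limma adjusted p = 2.46e-06), while Mfge8 (-0.19) and Thbs3 (-0.39) fell. Of 12 other elastic fibre genes 2 were tested. Adamtsl4, which associates with fibrillin microfibrils, fell to 38.9% of the siCtrl mean, with 349, 396 and 407 normalized counts in siUhrf2 libraries and 898, 1074 and 992 in siCtrl libraries (limma adjusted p = 1.24e-07). Efemp1, a fibulin related to Efemp2, rose instead (log2 fold change 0.57, limma adjusted p = 0.000526).

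The remaining list held 31 other collagen-processing genes, of which 20 were tested, 4 rose and 9 fell. Pcolce, which enhances the trimming of procollagen, had 3721, 3440.0 and 3510.0 normalized counts in siUhrf2 libraries and 5567, 5679.7 and 5557 in siCtrl libraries (log2 fold change -0.66, limma adjusted p = 6.95e-08). Mia3, which loads procollagen into transport carriers, fell (log2 fold change -0.41, limma adjusted p = 6.26e-07). Colgalt2, a collagen galactosyltransferase (-1.11), and Plod3, a lysyl hydroxylase and glycosyltransferase (-0.32), fell as well. Colgalt2 averaged 0.793 FPKM in siUhrf2 libraries and 1.73 FPKM in siCtrl libraries, so it too was tested only through its siCtrl libraries.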

How the data were processed

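Groups and replicate numbers came from the sample titles, and all 12 value columns were matched to samples by those names. The authors deposited a normalized count per gene and library (a signal scaled between libraries, not whole reads) and an FPKM value, per the file headers. Tools named in the submitters' processing notes are kallisto 0.44.0 and edgeR, with the build GRCm38.p6 and no word on the step each served. Not given in the sources used here are the annotation release, any use of strand and the length behind FPKM. What 1 read was worth, 0.922 to 1.09 normalized units, was read from the low values of each library. Gene symbols, coordinates and transcript lengths came from GENCODE M21, and promoter windows from RefSeq (GRCm38.p6).

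Genes averaging 1 FPKM or more were tested with limma 3.58.1 (R 4.3.3) on log2(normalized count + 1), with a variance trend, robust variances and Benjamini-Hochberg adjustment over all 11343 genes, tested beforehand on simulated data. A call is an adjusted p under 0.05. All replicate pairs differed by more than sampling noise. The members, lists and pairs were chosen with earlier results of these data known. Every member is named. Values in every library are given for the members of at least 5 FPKM with the 3 largest changes each way in a role group, for members of the pairs and for those past 1.5-fold, and values of others where they help. Of further genes, up to 4 called ones per list with the smallest adjusted p are named. Some genes outside the 48 are counted in these lists but not reported here by name. Alternatives covered scaling, pseudocount, filter, variance model, threshold, replicate block and left-out libraries.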

Additional observations from a re-analysis of the deposited data

How the results depend on the processing

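Asking for more than a 1.5-fold change left 342 genes, with 3 matrix genes lower and 2 higher, against 6919, 17 and 8 in the report. The other settings gave 5354 to 7435 genes, 15 to 20 lower and 7 to 8 higher matrix genes. These covered 3 other scalings, log2(FPKM + 0.1), 2 other pseudocounts, 2 other filters, another variance model, an adjusted p under 0.01, each library left out (6010 to 7047 genes, 17 to 20 lower, 7 to 8 higher), the replicate block and, chosen after seeing the data, a filter by longest-transcript level. Without trend and robust variances Thbs1 passed (adjusted p = 0.0358) and P4ha1 did not (0.0608). The log2 difference of Lamb1 over Lamc1 was -0.52 after quantile normalization, against -0.57. Of 625 values of single matrix genes under settings other than the 1.5-fold test, 597 kept direction and side of the threshold, 17 moved across the threshold and 11 changed sign. The 11 concern 6 genes that did not pass before or after. Under quantile normalization the log2 fold change was -0.080 for Col18a1, -0.060 for Agrn, -0.0046 for Ltbp3 and 0.0094 for Plod2. For Plod2 it was also 0.0055 with median-of-ratios and 0.0070 with upper-quartile scaling, and with libraries left out it ran from -0.060 to 0.052. The ranges with libraries left out were -0.33 to 0.035 for Col6a2, -0.12 to 0.021 for Tnc and -0.015 to 0.042 for Col18a1. Same-numbered libraries deviated together with r of 0.18, 0.24 and 0.07 across genes, so the numbers are not shown to pair samples, although each library correlated best with its own number. With the replicate block 7248 genes were called, 18 matrix genes lower and 8 higher: Col6a1 (limma adjusted p = 0.00264) and Thbs1 (1.42e-06) passed and Fn1 (0.0973) did not. At 44.6 M to 53.1 M estimated reads the 13 scarce genes reached at most 114 normalized counts, and the 1 FPKM limit, a choice made here, kept them out of the test.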

Other observations

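Replicate 1 of siUhrf2 was the highest siUhrf2 library for 12 of the 17 matrix genes that fell, replicate 2 for 2 and replicate 3 for 3. Over all genes that fell, replicate 1 was highest for 47.6%. Postn, Fn1, Hspg2, Col6a1, Thbs1 and Lama5 all had their highest siUhrf2 value in that library. Its part in the results was not tested beyond the values without it.

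Cholangiocyte markers were present in these hepatocyte-labelled cells, with 5 of 7 at 1 FPKM or more. They summed to 3025 to 3315 FPKM in siUhrf2 libraries and 2703 to 2884 FPKM in siCtrl libraries, mostly Spp1, which did not pass (log2 fold change 0.07). Krt19 rose (log2 fold change 0.99, limma adjusted p = 4.16e-07), while Epcam was at 0 in every library.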
